A study of Rattus norvegicus with 8 samples.

Results

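The acute phase genes are the genes of liver-secreted plasma proteins whose level in blood changes with inflammation or injury. Here 10 of them were followed: *A2m* (NM_012488), *Hp* (NM_012582), *Crp* (NM_017096), *Orm1* (NM_053288), *Fgb* (NM_020071), *Fgg* (NM_012559), *Cp* (NM_012532), *Hpx* (NM_053318), *Lcn2* (NM_130741) and *Hamp* (NM_053469). Their probes were found by these RefSeq transcript identifiers, which the array files give each feature. They made up 15 probes, each printed once, of 41012 probes on the array. *Cp* had 3 probes, *Crp*, *Fgb* and *Fgg* had 2 each, and the remaining genes had 1. The set was chosen on the measured LO/control ratios, with the lower *A2m* ratio in the liver already known, so that the ratios of treated over control RNA below are descriptions without a test of their own.

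In the acute phase response, interleukin 6 and interleukin 1 from activated macrophages reach the hepatocyte. Interleukin 6 acts through its receptor and gp130 on the transcription factor STAT3, and interleukin 1 acts through NF-kappa B and C/EBP proteins. The fibrinogen chains and rat *A2m* respond to cytokines of the interleukin 6 type, whereas *Orm1* responds to both cytokines. In the rat, alpha-2-macroglobulin is a major acute phase protein with a low basal level in the adult liver, whereas C-reactive protein circulates constitutively.

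Male rats that were 7 weeks old received either 10% ethanol, the diluent (control), or lavender oil (LO) at 5 mg/kg in 10% ethanol, given into the stomach daily for 13 days, with 6 rats per treatment. Both groups therefore received ethanol. The strain is Fischer (F334) in the husbandry notes and Wistar in the sample annotation. Dissection was on day 14 by the methods. Total RNA was pooled within each treatment and tissue. A control pool and an LO pool were hybridized together on each of 8 two-color arrays, with LO in Cy5 on array 1 of a pair and in Cy3 on array 2. The spleen and the small intestine had 1 pair of arrays each, and the liver had 2 pairs, called pool 1 and pool 2 here. How the rats were divided between the liver pools is not given in the sources used here. The spread between the arrays of a pair holds labelling and hybridization error only, and no value holds the spread between single rats.

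Both channels of 44.3% to 64.7% of the features on an array stood well above background, and 0 features were saturated. The 2 arrays of a pair gave LO/control ratios that correlated negatively across 30620 probes (Pearson's r from -0.72 in both liver pools to -0.60 in the spleen), a correlation across probes of the same pools. Ratios on single arrays thus tended to change sign with the dye. The dye-averaged ratios of liver pool 1 and pool 2 correlated at r = 0.040 across the same probes. Most measured markers of the labelled tissues had their highest level in that tissue, but the hepatocyte marker *Apoa1* had a log2 level of 16.4 in liver and 17.1 in small intestine, and the B cell marker *Ms4a1* was not well above background in the spleen. The log2 of the summed signal of 6 hepatocyte markers in control RNA was 19.2 in both liver pools, 8.82 in spleen and 17.1 in small intestine. The small intestine value is close to that of *Apoa1* alone, and the median log2 level of the markers there was 4.35. The B cell marker *Cd79b* was at 14.3 in the spleen, and the enterocyte marker *Fabp2* was at 17.3 in the small intestine.

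*A2m*, a broad protease inhibitor that traps proteases in plasma, had a lower signal with LO on all 4 liver arrays. In liver pool 1 the deposited signal was 903 in the control pool and 611 in the LO pool on array 1. On array 2, where the dyes were exchanged, it was 904 and 654. In pool 2 the signal was 1111 in control and 687 in LO on array 1, and 987 and 651 on array 2. The highest LO value, 687, lay below the lowest control value, 903. The share of all probes without such overlap was not counted. The log2 LO/control ratios were -0.56 and -0.47 in pool 1 and -0.69 and -0.60 in pool 2, and the size was close in both dye orientations. The mean was -0.58 ± 0.092 (SD, n = 2 pools), a ratio of 0.669, or a change of -33.1%. In these bulk samples, fewer cells of a type and less RNA per cell cannot be told apart.

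In the spleen the *A2m* signal was 641 in control and 637 in LO on array 1, and 461 and 526 on array 2. The ratios of the spleen lay on both sides of 0, at -0.01 and 0.19. In the small intestine the signal was 124 in control and 129 in LO on array 1, and 114 and 104 on array 2, with log2 ratios of 0.05 and -0.13. The means were 0.09 and -0.04, within the spread between the arrays in each of these tissues. Whether the liver ratio differed from those of the other tissues was not tested, since the liver value chose the gene.

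**Figure D1:**
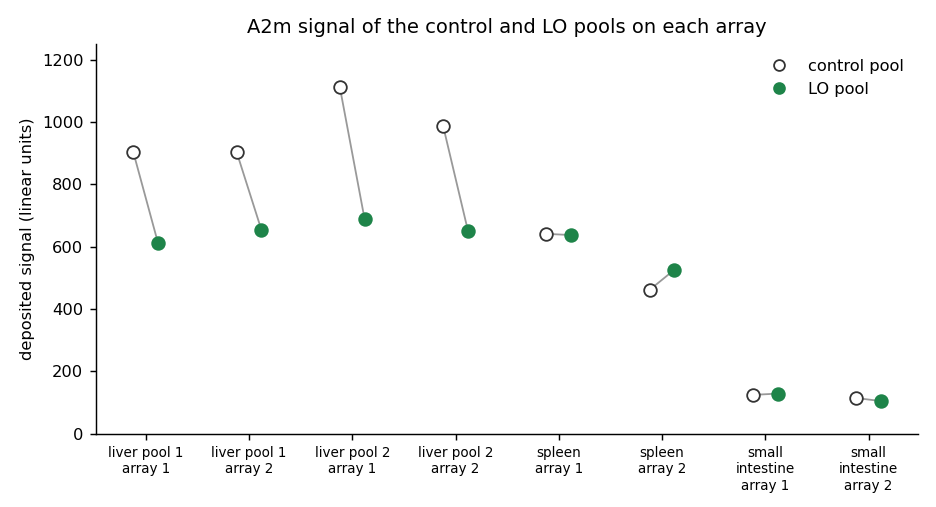
Deposited *A2m* signal (linear units, vertical axis) of the control pool (open points) and the LO pool (green points) on each of the 8 arrays, with a line joining the pools of an array. The LO pool lay below the control pool on all 4 liver arrays (611 to 687 against 903 to 1111), while the spleen and small intestine pools lay close together.

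Across the array, 903 of 30636 probes (2.95%) were lower with LO on all 4 liver arrays and 975 (3.18%) were higher. Among the 15 acute phase probes, *A2m* and 1 of the *Cp* probes were lower on all 4, and 0 were higher. Of all probes, 11 (0.0359%) were at or below the weakest *A2m* array, -0.47, on every liver array. Bright probes, 16306 in number, were those well above background in both channels on all 4 liver arrays. Of these, 3 (0.0184%) were as low: *Cxcl1*, *A2m* and the unnamed probe A_44_P962890. *Cxcl1*, a neutrophil-attracting chemokine that also responds to inflammation, had a mean of -1.004, and A_44_P962890 had a mean of -0.55.

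Of the haem and haemoglobin scavengers, *Hp* followed the dye on every liver array and *Hpx* did not. *Hp* encodes haptoglobin, which binds free haemoglobin. Its log2 LO/control ratio was 0.18 and 0.22 on the arrays with LO in Cy5, and -0.55 and -0.49 on those with LO in Cy3. The sign thus turned with the dye in both pools. The *Hp* mean over the dye orientations was -0.19 in pool 1 and -0.13 in pool 2, giving -0.16 ± 0.036 (SD, n = 2 pools). Control signals ran from 216910 to 280462 and LO signals from 157879 to 283559, so that the groups overlapped. *Hpx*, hemopexin, binds free haem. Its ratios were -0.01 and -0.21 in pool 1 and 0.22 and -0.01 in pool 2, with pool means of -0.11 and 0.10 and a mean of 0.00 ± 0.15 (SD, n = 2 pools).

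The fibrinogen chains *Fgb* and *Fgg*, which form the clot, had 4 probes. The first *Fgb* probe (A_43_P10037) gave 0.50 and 0.45 with LO in Cy5 and -0.64 and -0.46 with LO in Cy3. The second (A_44_P1044835) gave 0.17 and 0.31 against -0.42 and -0.38. Both probes thus turned sign with the dye, and their dye-averaged means were -0.04 ± 0.042 and -0.08 ± 0.065 (SD, n = 2 pools). The *Fgg* probes carried less dye difference. A_43_P11464 ran from -0.13 to 0.03 with a mean of -0.08 ± 0.065, and A_44_P558641 ran from -0.04 to 0.26 with a mean of 0.06 ± 0.10 (SD, n = 2 pools). The *Fgg* probes of this single gene differed in sign.

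*Crp*, the pentraxin C-reactive protein that binds phosphocholine on damaged cells and bacteria, lay near 0 in the liver. Its brighter-in-Cy5 probe A_43_P11818 had a mean of 0.00 ± 0.061 and ran from -0.18 to 0.26, and A_44_P252529 had a mean of -0.03 ± 0.14 and ran from -0.31 to 0.17 (SD, n = 2 pools). *Orm1*, alpha-1-acid glycoprotein, a plasma carrier of basic drugs, had ratios of -0.39 and -0.36 with LO in Cy5 and 0.17 and 0.17 with LO in Cy3. The mean of *Orm1* was -0.10 ± 0.010 (SD, n = 2 pools), smaller than the difference between its dye orientations.

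*Cp*, *Lcn2* and *Hamp* act on metals. *Cp*, ceruloplasmin, is a copper ferroxidase that helps load iron on transferrin, and its 3 liver means were -0.07 ± 0.0025, -0.06 ± 0.082 and -0.08 ± 0.00042 (SD, n = 2 pools). The *Cp* probe A_44_P404836 was lower on every liver array, at -0.07, -0.09, -0.06 and -0.10, while its control signals (4197 to 8055) and LO signals (4037 to 7584) overlapped. *Hamp* encodes hepcidin, the hormone that closes the iron exporter ferroportin. Its ratios were 0.28 and 0.46 with LO in Cy5 and -0.23 and -0.07 with LO in Cy3, with a mean of 0.11 ± 0.12 (SD, n = 2 pools), the highest of the 15 probes. *Lcn2*, lipocalin 2, binds the iron carriers of bacteria. It was dim, with signals from 18.6 to 53.6 and at least 1 channel not well above background on each liver array, and its ratios ran from -1.16 to 1.37 with the sign of the dye.

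**Figure D2:**
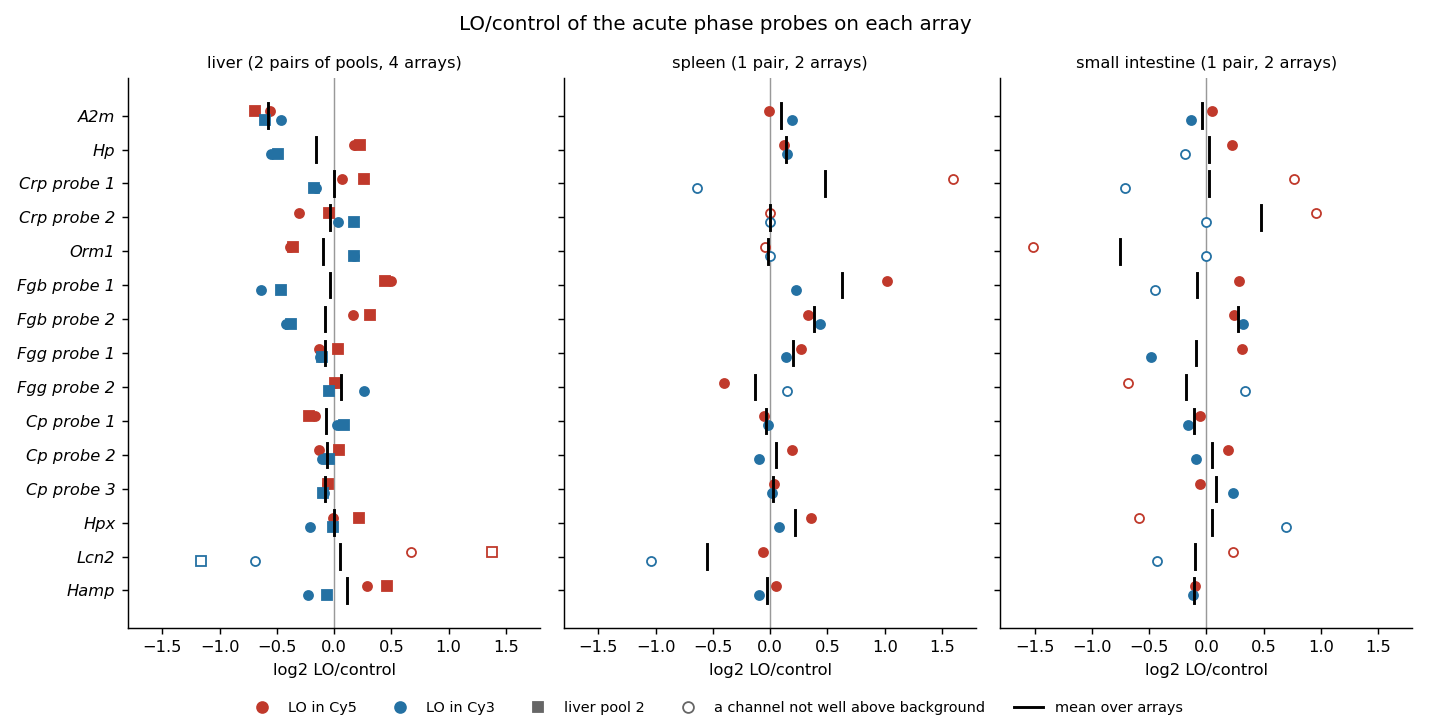
log2 LO/control (horizontal axis) of the 15 acute phase probes on each array, by tissue, in red for LO in Cy5 and blue for LO in Cy3, with squares for liver pool 2, open points where a channel was not well above background and a black bar for the mean over arrays. The *A2m* points of the liver lay together between -0.69 and -0.47, whereas the *Hp*, *Fgb* and *Lcn2* points fell on both sides of 0 by dye.

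Counted over the 4 liver arrays, Cy5 was the brighter dye on every array for 6 of the 15 probes (*Hp*, 1 of *Crp*, both of *Fgb*, *Lcn2* and *Hamp*), against 26.8% of all probes. Cy3 was the brighter on every array for 3, against 22.8%. In the spleen the counts were 3 and 2 probes, against 32.9% and 32.4%, and in the small intestine 7 and 3, against 36.6% and 34.2%. The dye-averaged liver ratios of the 15 probes had a median of -0.06, where the median of all probes was 0.00. The lowest 5% of bright probes had a mean at or below -0.14 and the highest 5% at or above 0.15. *A2m* and *Hp* lay below that range and the others with bright signals lay inside it.

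**Figure D3:**
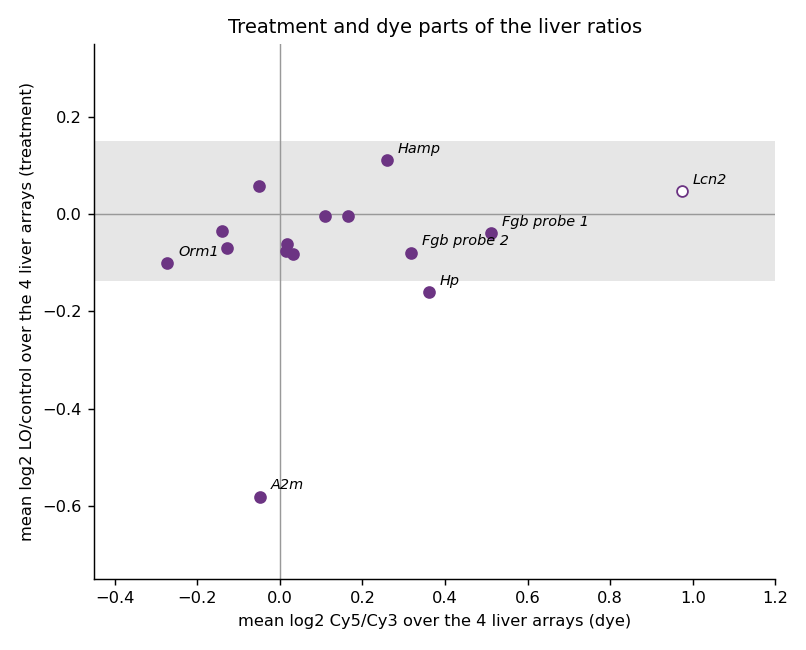
Mean log2 LO/control (vertical axis, treatment) against mean log2 Cy5/Cy3 (horizontal axis, dye) over the 4 liver arrays for the 15 acute phase probes, with the range of bright probes without the lowest and highest 5% shaded and an open point for the dim *Lcn2* probe. *A2m* stood at -0.58 for treatment and -0.05 for dye, while *Fgb*, *Hp* and *Lcn2* were spread along the dye axis.

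In the fit across all probes, limma with Benjamini-Hochberg adjustment called 0 of 30620 probes in the liver, the spleen or the small intestine at an adjusted p below 0.05 (0.00% in each direction, so 0 of the 15 acute phase probes). At an unadjusted p below 0.05, 1779, 1303 and 1207 probes passed. The fit rests on 1 residual degree of freedom, from the liver pools. With normexp background correction in place of the deposited correction, 91 liver probes were called higher and 59 lower, and 92 spleen probes higher and 13 lower. The *A2m* liver ratio was then -0.51 and was called lower (limma adjusted p = 3.48e-06), the 1 acute phase probe called in the liver. In the spleen 1 acute phase probe was then called higher. The set was chosen on these ratios, so that the calls are no separate test.

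The methods of the study take a feature as changed where both arrays of a dye-swap pair pass, with a ratio of at least 1.5 in one direction and at most 0.75 in the other and a software P below 0.01. In liver pool 1, 6 features of 43345 were higher (0.0138%) and 3 lower (0.00692%), and 0 were acute phase genes. In liver pool 2, 7 were higher (0.0161%) and 10 lower (0.0231%), and *A2m* was one of the lower. Required in both pools together, 2 were higher (0.00461%) and 2 lower (0.00461%), and 0 were acute phase genes. For *A2m* the software P was 0.00764 and 0.0256 in pool 1 and 0.00123 and 0.00473 in pool 2. Its Cy5/Cy3 ratio was 0.676, 1.38, 0.619 and 1.52 in the same order, so that array 2 of pool 1 missed both limits.

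In the spleen, several acute phase probes were measured higher with LO. Of these, the *Fgb* probes, *Fgg* A_43_P11464 and *Hpx* had signals of 103 or less. *Hp* had signals from 339 to 479 and *Cp* A_44_P404836 from 882 to 1119. *Fgb* probe A_43_P10037 had signals of 51.0 in control and 103 in LO on array 1, and 47.3 and 55.4 on array 2, log2 ratios of 1.02 and 0.23. The other *Fgb* probe had ratios of 0.33 and 0.43. The second *Fgg* probe, A_44_P558641, had ratios of -0.41 and 0.15 with a mean of -0.13, and was not well above background on array 2. Of the 15 probes, 6 were higher with LO on both spleen arrays, against 15.0% of all probes, and 3 were lower, against 15.8%. The 6 were *Hp* (mean 0.14), both *Fgb* probes (0.62 and 0.38), *Fgg* A_43_P11464 (0.20), *Hpx* (0.21) and *Cp* A_44_P404836 (0.02), and the 3 were *Orm1* (-0.02, not well above background in control), *Cp* A_43_P11448 (-0.04) and *Lcn2* (-0.55, dim in both channels on array 2). By the thresholds of the methods 3 spleen features were higher (0.00692%) and 4 lower (0.00923%), and 0 were acute phase probes.

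Hepatocyte markers moved with these spleen ratios. Of 6 markers, 4 were higher with LO on both spleen arrays, *Alb* (mean 0.55), *Apoa1* (0.49), *Serpina1* (0.49) and *Cyp2e1* (0.11), and *Ttr* had a mean of 0.61 with arrays at -0.00 and 1.23. Control spleen signals of *Apoa1* and *Cyp2e1* were well above background on 1 array each. *Tat*, the tyrosine aminotransferase of hepatocytes, was not well above background in control spleen. The log2 of the summed signal of the 6 markers in the spleen was 8.82 in the control pool and 9.35 in the LO pool. The erythroid markers *Hbb* and *Alas2* were also higher with LO on both spleen arrays, with means of 0.29 and 0.23. The part of these markers in the spleen values of the acute phase genes was not tested.

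In the small intestine, the acute phase genes gave few ratios with a steady sign. *Fgb* A_44_P1044835 was higher on both arrays (0.24 and 0.32), against 14% of all probes. *Cp* A_43_P11448 (-0.05 and -0.16) and *Hamp* (-0.10 and -0.12) were lower on both, against 12.5%. *Hp* had signals of 255 and 298 on array 1 but 22.3 and 19.7 on array 2, where it was not well above background, so that its arrays disagreed on the level of the gene. By the same thresholds 5 features were higher (0.0115%) and 4 lower (0.00923%), again with 0 acute phase probes. *Hbb* and *Alas2* were higher with LO on both arrays here too, each with a mean of 0.29.

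Other genes of the response were taken from lists of positive and negative acute phase genes, of interleukin 6 and STAT3 signalling and of iron control. limma called 0 genes of these lists in any tissue. Of 26 other positive acute phase genes in the liver, 1 was higher and 2 were lower on all 4 arrays, with a median log2 LO/control of -0.05, where 3.18% and 2.95% of all probes were. *Vnn1*, a pantetheinase that makes cysteamine, had a mean of 0.39 (0.25 to 0.55). *Il1rn*, the interleukin 1 receptor antagonist, had -0.17, and *Hmox1*, which degrades haem, had -0.13. *Serpina3n*, *Fga* and *C3*, which are classical liver acute phase genes, had liver means of -0.02, -0.06 and 0.05, each with arrays on both sides of 0.

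Of 15 negative acute phase genes, whose products usually decrease in inflammation, 0 were higher and 2 lower on all 4 liver arrays, *Gc* (the vitamin D carrier, -0.15) and *Cyp2e1* (an ethanol-oxidizing cytochrome P450, -0.12). The median was -0.02. Of 23 tested genes of interleukin 6 and STAT3 signalling, 0 were higher and 3 lower on all 4 arrays: *Il1b* (-0.21), *Il6r*, the interleukin 6 receptor (-0.18), and *Cebpd*, a C/EBP transcription factor (-0.07). *Stat3* itself had 0.02, from -0.44 to 0.54, and its feedback inhibitor *Socs3* had -0.14, from -0.35 to 0.01. Of 16 iron genes, *Smad7*, an inhibitory Smad that lowers hepcidin transcription, had 0.28 and *Hfe*, which acts upstream of hepcidin, had 0.08, both higher on all 4 arrays, and *Hmox1* was the 1 lower. Some markers of other cells were also lower on all 4 liver arrays. They were *Adgre1* (-0.15) and *Clec4f* (-0.06) of 3 measured macrophage markers, whose median was -0.10. *Cd74* (-0.16), of antigen-presenting cells, was 1 of 2 tested markers on the B cell list. *Hbb* (-0.15) was 1 of 2 measured erythroid markers. Of 3 T cell and 3 neutrophil markers 0 were lower on all 4 arrays, with medians of 0.02 and -0.01. The log2 of the summed signal of the macrophage markers was 14.88 in control and 14.78 in LO in pool 1, and 15.03 and 14.99 in pool 2. Their part in the liver values was not tested.

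In the spleen the lists of liver products had medians above 0. Of the 26 other positive genes 13 were higher on both arrays with a median of 0.15, and of the 15 negative genes 8 were higher with a median of 0.30, beside 15.0% and a median of 0.00 for all probes. *Serpina3k* had 0.68, and *Fga*, the third fibrinogen chain, had 0.70 but was not well above background in control spleen. The negative list holds 4 of the 6 hepatocyte markers and the positive list holds 1, and *Kng1* and *Kng1l1* share a probe. The signalling and iron lists had medians of -0.01 and 0.00. In the small intestine the medians of the 4 lists lay between -0.03 and 0.03. The B cell, T cell and macrophage markers of the spleen had medians of 0.01, -0.02 and 0.04, and the neutrophil markers had -0.06.

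**Figure D4:**
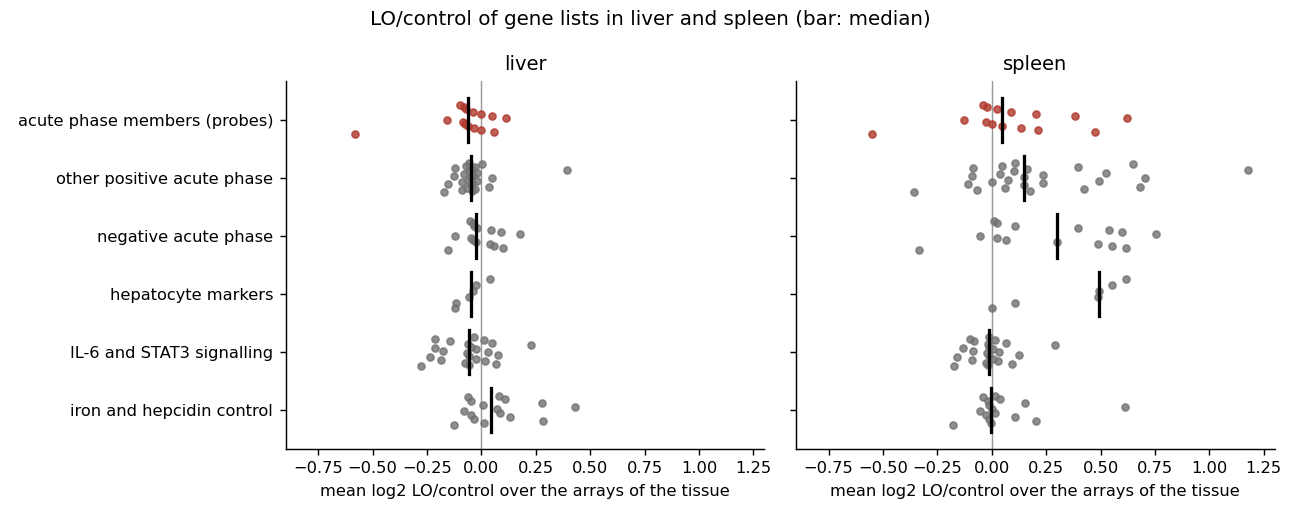
Mean log2 LO/control (horizontal axis) in liver and spleen of the 15 acute phase probes (red) and of the genes of 5 lists (grey), with a black bar for each median. The liver medians lay between -0.06 and 0.04, while in the spleen the medians of the hepatocyte markers, 0.49, and of the negative acute phase genes, 0.30, lay to the right.

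The genes most like *A2m* were ranked by the root mean square difference of their log2 LO/control from that of *A2m* over the 8 arrays, among 5986 named probes that were bright in the liver. The nearest was *Foxa2*, a forkhead factor of hepatocytes, at 0.14, with a liver mean of -0.47. *Acmsd*, an enzyme of tryptophan breakdown, *Gadd45a* and *Gadd45g*, which respond to growth arrest and stress, and *Dusp6*, a phosphatase of ERK, followed at 0.18 to 0.19. In the spleen *Foxa2* and *Acmsd* were not well above background and their ratios are listed as exactly 1, while the means were 0.18 for *Gadd45a*, -0.24 for *Gadd45g* and -0.03 for *Dusp6*. Their liver means were -0.37, -0.38, -0.59 and -0.34. These points share arrays and RNA pools, and the ranking is a description.

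The control pools allow another comparison, the level of each gene between tissues. The genes are those of liver-secreted plasma proteins, so that a higher level in the liver was in part fixed by their choice. For *A2m* the liver control signal is also the denominator of the ratio that chose it. In the control channel, 14 of the 15 probes were higher in the liver than in the spleen by limma, where 14% of all probes were higher and 18.6% lower, and 14 were higher in the liver than in the small intestine, where 10.1% were higher and 11.8% lower. Between spleen and small intestine 3 probes, those of *Cp*, were higher in the spleen, where 5.18% were higher and 6.57% lower. In each comparison 0 of the 15 were called lower. The 3 comparisons share their pools. Each array held a single tissue, so that differences between arrays or slides and between tissues cannot be fully told apart.

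*Hp*, the fibrinogen chains, *Hpx*, *Crp*, *Orm1* and *Hamp* were marked liver genes. In log2 units *Hp* was 9.36 ± 0.40 (SE) higher in the liver than in the spleen, 658-fold (limma adjusted p = 0.000645), and *Fgb* A_44_P1044835 was 12.32 ± 0.40 higher, 5097-fold (adjusted p = 0.000595). *Hamp* was 10.16 ± 0.40 higher than in the spleen and 10.18 ± 0.40 higher than in the small intestine (adjusted p = 0.000595 and 0.000614). Its spleen and small intestine levels, 5.53 and 5.51, were not separated. *Crp* and *Orm1* were not well above background in control spleen and small intestine, so their differences are bounds. Liver *Orm1* was at least 1948-fold higher than spleen and at least 2132-fold higher than small intestine. *Crp* A_43_P11818 was at least 2755-fold and 3204-fold higher. The limma adjusted p-values were 0.000595 against spleen and 0.00061 against small intestine for both genes. They belong to fitted differences that use the dim signals as deposited, and do not test the bounds. Both genes passed the filter on dim probes through their liver arrays.

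*A2m* and *Cp* had measurable levels in all 3 tissues, well above background on each array. This also held for *Hamp*, *Fgb* A_44_P1044835 and *Fgg* A_43_P11464. The scaled log2 *A2m* level of the control pools was 10.1 in liver pool 1 and 10.4 in pool 2, 8.60 in spleen and 6.67 in small intestine. The liver was above the small intestine by 3.58 ± 0.42 (SE), 12.0-fold (limma adjusted p = 0.00779). It was above the spleen by 1.64 ± 0.42, 3.12-fold (adjusted p = 0.0426), and the spleen was above the small intestine by 1.94 ± 0.49, which missed the threshold (adjusted p = 0.0743). The liver and spleen call for *A2m* was lost in the LO pools (0.97, adjusted p = 0.126), without array 1 or array 2 of each pair (adjusted p = 0.0725 and 0.055) and without scaling between arrays (0.84, adjusted p = 0.155), where the median of all probes was itself shifted by -0.69 and *A2m* stood 1.53 above it. Between spleen and small intestine the call was gained with scaling to the 75th percentile (adjusted p = 0.0401), without scaling (0.0308) and with normexp (0.00339).

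The *Cp* probes were 2.37 ± 0.41, 3.22 ± 0.45 and 3.10 ± 0.43 (SE) higher in the liver than in the spleen (limma adjusted p = 0.0163, 0.00962 and 0.00951). They were 3.98 to 4.06 higher in the spleen than in the small intestine, a comparison of single pools without a spread of its own. The order of *Cp* was thus liver, spleen, small intestine. *Lcn2* was the 1 probe not called in the liver, at 0.67 ± 0.46 (SE) above the spleen (limma adjusted p = 0.313), with control signals well above background on 2 of 4 liver arrays and 1 of 2 spleen arrays. In the small intestine *Lcn2* was not well above background, and the fitted difference of the liver from it was 1.43 (limma adjusted p = 0.0906). The liver mean was 2.47-fold above the lowest signal well above background. This is no firm bound, since the liver mean itself holds dim signals. The fitted difference was called with scaling to the 75th percentile (adjusted p = 0.0286). It was also called with 8 separate control signals without or with the replicate block (0.038 and 0.0349). The split of all probes called between liver and spleen, 4274 higher and 5684 lower, became 6798 and 5510 after scaling to the 75th percentile and 3428 and 10240 without scaling. Between liver and small intestine it went from 3102 and 3606 to 2684 and 6968 without scaling.

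**Figure D5:**
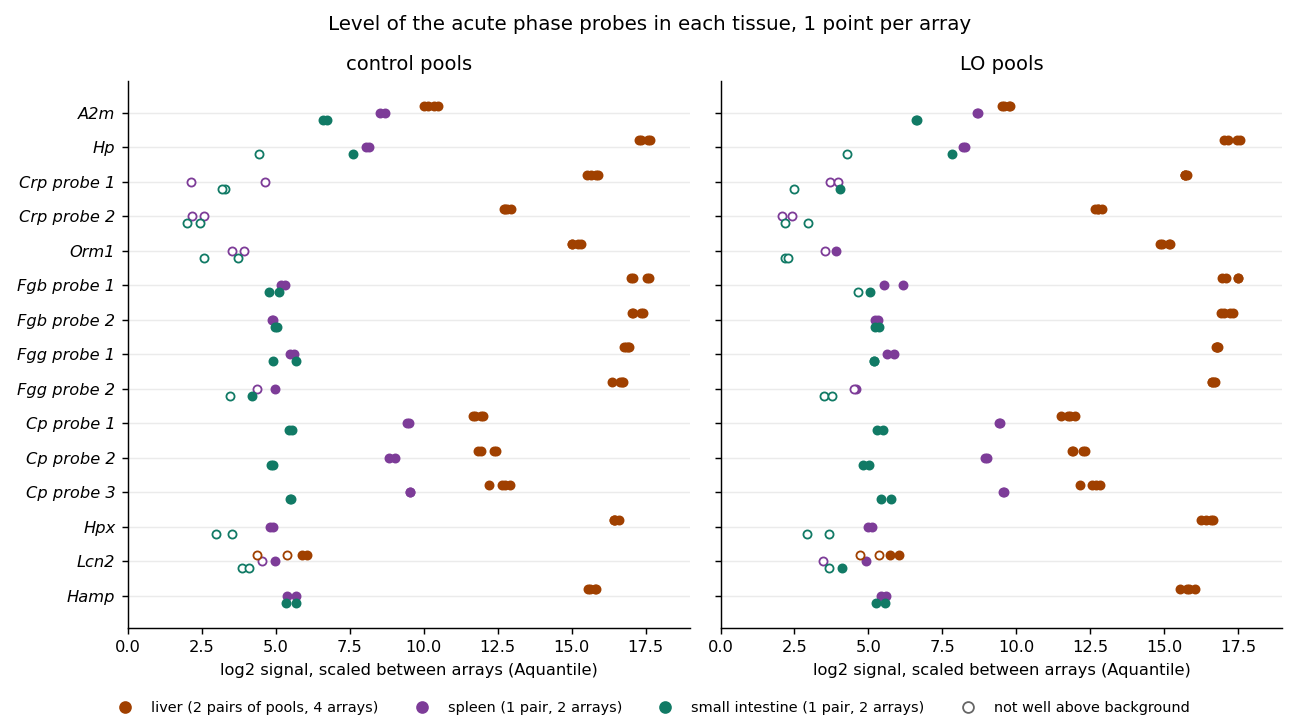
Scaled log2 signal (horizontal axis) of the 15 acute phase probes in control pools (left) and LO pools (right), 1 point per array, in brown for liver, purple for spleen and green for small intestine, open where not well above background. All probes but *Lcn2* had their liver points clear of the other tissues, and *A2m* and *Cp* showed 3 separate groups.

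The reference promoters allow a look at sequence, which was not read to choose the genes. The genes belong to a response that acts through STAT3 and C/EBP proteins. Matches to the letters of these sites were therefore in part fixed by their choice. Windows of 250 bases before the transcription start were at hand for 8 of the 10 genes, from RefSeq on the rat build GRCr8. *A2m* and *Hp* had no window and were not searched. The letters of a STAT site, TTCNNNGAA, searched on both strands, were in 2 of the 8 windows, those of *Fgb* and *Hamp*, and in 7.67% of 33469 rat promoter windows of this length. The letters TTNNGNAA of a C/EBP site, on both strands, were in 6 of the 8 and in 37.2% of all windows. The windows of *Fgb* and *Hamp* are shown as those with the STAT letters, and those of *Orm1* and *Cp* as 2 with C/EBP letters, of which *Orm1* was not well above background in control spleen and *Cp* was on every array. Capitals mark the matches. *Fgb* lies at chr2:170700876-170701125 on the minus strand, *Hamp* at chr1:95300272-95300521 on the minus strand, *Orm1* at chr5:81788259-81788508 on the plus strand and *Cp* at chr2:104368420-104368669 on the plus strand.
Fgb: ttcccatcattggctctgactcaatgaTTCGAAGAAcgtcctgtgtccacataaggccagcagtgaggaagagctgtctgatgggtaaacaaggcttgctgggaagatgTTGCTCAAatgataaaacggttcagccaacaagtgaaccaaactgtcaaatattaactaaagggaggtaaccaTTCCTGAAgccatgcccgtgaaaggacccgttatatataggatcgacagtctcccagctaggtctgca
Hamp: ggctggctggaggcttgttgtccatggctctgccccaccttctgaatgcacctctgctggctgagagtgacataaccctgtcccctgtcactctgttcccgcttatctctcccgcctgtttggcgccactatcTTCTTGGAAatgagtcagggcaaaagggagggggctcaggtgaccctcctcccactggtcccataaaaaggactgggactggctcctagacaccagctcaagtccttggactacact
Orm1: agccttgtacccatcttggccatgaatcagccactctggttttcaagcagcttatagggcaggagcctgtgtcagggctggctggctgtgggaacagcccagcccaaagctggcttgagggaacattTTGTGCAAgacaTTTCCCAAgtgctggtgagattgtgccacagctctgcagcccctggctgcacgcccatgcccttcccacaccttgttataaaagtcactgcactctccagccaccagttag
Cp: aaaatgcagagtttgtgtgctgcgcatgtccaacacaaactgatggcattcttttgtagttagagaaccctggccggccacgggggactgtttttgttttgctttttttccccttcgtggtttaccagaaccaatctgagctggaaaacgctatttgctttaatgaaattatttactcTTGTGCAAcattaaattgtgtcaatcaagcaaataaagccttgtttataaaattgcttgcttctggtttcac
Counted from the transcription start, the STAT letters began at -223 in *Fgb* and at -117 in *Hamp*. C/EBP letters began at -141 and -68 in *Fgb*, at -123 and -111 in *Orm1* and at -72 in *Cp*. In the liver the dye-averaged log2 LO/control of these genes lay between -0.10 and 0.11. A match of letters describes the window and shows no binding.

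The liver pools differed from each other in some members in both treatments. *Cp* was lower in pool 2 than in pool 1 by its 3 probes, with log2 differences of -0.27, -0.52 and -0.40 in control RNA and -0.27, -0.40 and -0.40 in LO RNA. *A2m* was higher in pool 2, by 0.35 in control and 0.22 in LO. Among all probes, 75.8% lay below the *A2m* value in control and 69.0% in LO, and between 19.5% and 34.1% lay below those of *Cp*. With 1 pair of arrays per pool these differences have no test.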

How the data were processed

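RNA of 4 pairs of control and LO pools was measured on 8 two-color Agilent arrays, grouped by the annotation. The authors extracted the images with Agilent Feature Extraction (11.0.1.1 in the submitters' processing notes) and deposited, for each feature, the log10 ratio of background-subtracted, LOWESS-normalized Cy5 and Cy3 signals. They also deposited its P value (p-value) which the software derives for 1 array from its own error model, and signal intensities on a linear scale with dim ones replaced by a surrogate. The deposited value table holds log10 ratios normalized in another way and served as an alternative. Flags of the software, also deposited, gave features well above background. The array files name features by transcript identifier, which RefSeq tables (GRCr8) gave symbols for 10768 of 41012 probes.

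Ratios were turned to log2 LO/control, and control features and non-uniform features were left out. The 2 arrays of a dye swap were averaged to 1 replicate, and limma (3.58.1, R 4.3.3) was fitted to 4 averaged pairs with a coefficient per tissue, on probes well above background in a channel on at least 2 arrays. The same fit on Aquantile-scaled log2 signals of the control channel compared tissues. P-values were adjusted by the Benjamini-Hochberg method over all probes, with a threshold of 0.05. They rest on the spread between the 2 liver pools, since the spleen and the small intestine had 1 pair each. The code was tested on simulated data. A probe below background on every array of a group gave a bound, from the lowest signal well above background. Replicate numbers mark the dye orientation in the annotation, and same-numbered arrays deviated together (r from 0.55 to 0.81).

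The genes and lists were chosen with earlier results of these data known. Named were all 10 genes, up to 3 genes per list and direction with the largest liver mean among bright genes of 1 sign on all 4 arrays, and the 5 genes nearest to *A2m*. *Cxcl1*, A_44_P962890, *Serpina3n*, *Fga*, *C3*, *Stat3*, *Socs3*, *Serpina3k* and the markers were named after their values were seen. A gene with several probes was taken by its brightest. Alternatives were normexp (offset 50), other scalings and filters, the value table, ratios of exactly 1 as missing, copies not averaged, the arrays as separate replicates with and without a replicate block, each replicate or pool left out, and stricter or looser thresholds. Python 3.11.15 with pandas 2.3.3 and matplotlib 3.10.9 made tables and figures.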

Additional observations from a re-analysis of the deposited data

Results flagged for a closer look

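Of 45 groups of 4 liver arrays tested for a value far from the others, 3 had one, and chance flags about 1 in 20 groups. *Fgg* A_43_P11464 had a log2 LO/control of 0.03 on its highest liver array, pool 2 array 1, with the others between -0.13 and -0.10. *Fgg* A_44_P558641 had 0.26 on its highest liver array, pool 1 array 2, with the others between -0.04 and 0.01. *Hpx* had a scaled log2 control level of 16.60 on its highest liver array, pool 2 array 2, with the others between 16.42 and 16.45.

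*Cp* A_44_P404836 was lower with LO on all 4 liver arrays, with a mean of -0.08, and higher on both spleen arrays, with a mean of 0.02. The difference between the tissues was not tested.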

How the results depend on the processing

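The mean log2 LO/control of *A2m* in the liver stayed between -0.65 and -0.51 over 13 alternatives, each within the spread of the main value. Over all acute phase probes and tissues, 515 alternative LO/control values stayed within the spread between pools or arrays and 36 moved beyond it. limma called 0 probes with LO in each tissue. The liver count was 150 with normexp, 2 with bright probes and 7 with bright probes and the replicate block on 8 arrays, an alternative chosen after seeing the data. The spleen count was 105 with normexp. These normexp calls held 1 acute phase probe in the liver, *A2m*, and 1 in the spleen. The small intestine count was 32 with normexp and 1 on 8 separate arrays, both without and with the replicate block.

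The pairing by dye orientation moved the counts between tissues little. With 8 control signals as separate replicates, 18163 probes were called between liver and spleen without the replicate block and 18669 with it, against 9958 in the fit of averaged pairs. For liver and small intestine the counts were 16043 and 16385 against 6708, and for spleen and small intestine 12325 and 12564 against 3596. At an adjusted p below 0.01 they were 3277, 2201 and 737. Normexp gave 10467 for liver and small intestine and 7924 for spleen and small intestine, and scaling to the 75th percentile gave 5475 for the latter. Leaving out a replicate gave 6362 to 8631, 3944 to 5409 and 1286 to 2297 in the same order.

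By the methods' thresholds, with both pairs of arrays required in the liver, the counts were 4 features for liver, 7 for spleen and 9 for small intestine. Without the P threshold they were 20, 239 and 309, and without a replicate they ranged from 507 to 636, 297 to 722 and 446 to 1027. *A2m* passed without replicate 2, and *Fgb* in the spleen. Liver pool 1 alone gave 9 and pool 2 alone 17, and without the P threshold 351 and 543, 2 settings chosen after seeing the data.

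Level differences that were not called changed sign in 8 settings. *Lcn2* between liver and spleen ranged from -0.11 to 1.44 without a replicate. Between spleen and small intestine, *Fgg* A_43_P11464 ranged from -0.19 to 0.72 and *Crp* A_43_P11818 from -1.16 to 1.42 without a replicate. With scaling to the 75th percentile *Hamp* was -0.020 and *Crp* A_43_P11818 was -0.091. *Fgb* A_44_P1044835 was 0.0097 without scaling, and *Crp* A_44_P252529 was -0.031 with normexp and -0.31 in the LO pools. Between spleen and small intestine *Hp* was called with scaling to the 75th percentile, without scaling, with normexp and without replicate 1 (adjusted p from 0.0133 to 0.0481), *Hpx* without scaling and with 8 separate signals, and *Fgg* A_44_P558641 with 8 signals and the replicate block. The cause of these changes was not tested. Signal limits *Lcn2* in each tissue, *Crp* and *Orm1* outside the liver, and *Hpx* in the small intestine.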
